A study of Mus musculus with 6 samples.

Results

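The RIG-I-like receptors and their adaptor are 4 genes: Ifih1, which encodes MDA5, Ddx58, which encodes RIG-I, Dhx58, which encodes LGP2, and Mavs, which encodes the adaptor protein. They were found by symbol in the count files, where 4 of 4 were present among 24421 gene symbols, and 4 of 4 passed the filter on low counts. The data are RNA sequencing counts of cells sorted by flow cytometry as endothelial from B16F0 tumours, a transplantable mouse melanoma line grown under the skin of C57BL/6 mice for 17 days. One group of 3 libraries came from mice given 15C4, an antibody against the secreted glycoprotein LRG1, and the other group of 3 from mice given control IgG, both at 50 mg/kg every 3 days. All 6 libraries share the tumour line and the mouse strain, and each was made from cDNA that was first amplified by PCR. Age and sex of the mice, and whether each library stands for its own mouse or for a pool, are unstated in the labels. Any p below thus reflects variation among the 6 libraries alone, and that variation may be technical. The genes were chosen by a measured value, namely the p-value of Ifih1 between 15C4 and IgG in these same libraries, one of the smallest, with the other 3 added as its family and adaptor. Their difference between the groups is therefore a description, and any p-value printed for it, from fits across all genes or from the authors' deposited table, restates that choice and supports nothing.

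RIG-I-like receptors are helicases of the cytoplasm that recognise double-stranded RNA, from viruses or from the cell itself. RIG-I binds RNA ends that carry phosphates, MDA5 assembles into filaments along longer duplexes, and both pass the signal through CARD domains to MAVS on the mitochondrial outer membrane. LGP2 binds RNA but has no CARD domain, and modulates the other two. MAVS activates the kinases TBK1 and IKK and, through the transcription factors IRF3, IRF7 and NF-kappaB, induces type I interferon. The receptor genes are themselves interferon-stimulated genes, whereas Mavs is commonly regarded as constitutively expressed. Endothelial cells and melanoma cells can both express this pathway.

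The start regions of Ifih1 and Ddx58 are shown because these 2 receptors had the highest summed counts of the 4 genes, 8002 and 9170, and are the pair compared within libraries below. They come from RefSeq on GRCm38, which listed a start region for 3 of the 4 genes, Ifih1, Ddx58 and Mavs. Dhx58 was not matched. Each region runs from 250 bases before the gene's start to 50 bases after it. It was searched on both strands for GAAA followed after any 2 bases by GAAA, the core of the interferon-stimulated response element bound by IRF proteins, and for GAAANGAAA, the same repeat with 1 base between. These motifs were picked after the sequences had been seen, and 1 more motif that was searched had no match in the 3 regions. Capitals mark a match, and position 1 is the first base of the gene in RefSeq. For Ddx58 this base is 40239825, whereas the gene span given below, from another annotation, reaches 40239828 on the minus strand. The last bases printed as upstream of Ddx58 thus lie inside that span.
Ifih1, 250 bases upstream, chr2:62646256-62646505, minus strand: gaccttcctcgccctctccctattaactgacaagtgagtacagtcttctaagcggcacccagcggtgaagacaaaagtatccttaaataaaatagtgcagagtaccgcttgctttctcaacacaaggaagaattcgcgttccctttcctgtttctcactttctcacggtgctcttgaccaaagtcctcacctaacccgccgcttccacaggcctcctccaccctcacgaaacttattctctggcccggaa
Ifih1, positions 21 to 50, chr2:62646206-62646235, minus strand: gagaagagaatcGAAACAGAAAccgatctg
Ddx58, 250 bases upstream, chr4:40239826-40240075, minus strand: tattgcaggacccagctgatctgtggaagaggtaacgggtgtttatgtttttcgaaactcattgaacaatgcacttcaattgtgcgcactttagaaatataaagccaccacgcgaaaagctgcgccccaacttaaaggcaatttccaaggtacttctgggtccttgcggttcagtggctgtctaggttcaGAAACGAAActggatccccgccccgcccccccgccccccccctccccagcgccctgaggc
Ddx58, positions 1 to 30, chr4:40239796-40239825, minus strand: agTTTCGATTTCctatggccagccggctag

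Ifih1 held 1 match to the response element core, starting at position 33, in an exon outside the coding sequence. Ddx58 held 1 match to the same letters on the reverse strand, starting at position 3, also in a noncoding part of an exon, and 1 match to GAAANGAAA starting at position -60. The Mavs region held neither motif. Of 32851 start regions of this length in the table, 3.44% held the response element core and 3.17% GAAANGAAA. Of the 37 interferon-stimulated genes listed for this report, 29 had a start region in the table, of which 11 held the response element core and 9 GAAANGAAA. These are counts of genes with a match in any of their start regions, whereas the percentages above are per start region. These are matches of letters and not sites shown to be bound.

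The libraries held between 5175600 and 19572202 counts, and 11144 genes were tested. Values are CPM, counts scaled to the library total, unless another scale is named. Pigment cell transcripts were plentiful in all 6, with 13 melanocyte markers summing to 24626 to 28491 CPM with 15C4 and 24213 to 29360 CPM with IgG, and none of the 13 at 0. The 20 pan-endothelial markers summed to 1631 to 3410 CPM with 15C4 and 229 to 2839 CPM with IgG, with the lowest sum in IgG 3, where Cdh5 was at 46.3 CPM. Whether counts of the 4 genes came from endothelial or tumour cells was not tested, and in sorted bulk samples fewer cells of a type and less RNA per cell cannot be told apart. The library 15C4 3 stood apart by its number of tested genes at 0 counts, 1537 against 31 to 507 in the others.

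Ifih1 (GRCm38 chromosome 2, 62595798 to 62646255, minus strand, 16 exons in its longest coding transcript) was the member whose levels lay furthest apart between the groups. It had 1311, 4069 and 1056 counts in 15C4 1, 2 and 3, and 319, 616 and 631 in IgG 1, 2 and 3. Scaled to depth, these were 156, 208 and 165 CPM with 15C4 and 61.6, 63.9 and 54.1 CPM with IgG. The lowest 15C4 library was above the highest IgG library. The group means were 176 ± 27.7 and 59.9 ± 5.14 CPM (SD, n = 3 each), a ratio of 2.95. The edgeR fit with TMM scaling gave a log2 fold change of 1.66 with a standard error (SE) of 0.36. Without IgG 3, the library with the lowest endothelial marker sum, the log2 fold change of Ifih1 was 1.62. Over single left-out libraries it lay between 1.52 and 1.79.

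Ddx58 (chromosome 4, 40203773 to 40239828, minus strand, 18 coding-transcript exons) was counted 1372, 3486 and 901 times with 15C4 and 449, 1416 and 1546 times with IgG. These were 163, 178 and 141 CPM with 15C4 and 86.8, 147 and 132 CPM with IgG. IgG 1 was the lowest library, while IgG 2 reached above 15C4 3, so the groups overlapped on this scale. With TMM scaling they did not overlap, with 153 to 187 CPM with 15C4 and 84.7 to 140 CPM with IgG. The means in CPM of the library total were 161 ± 18.7 and 122 ± 31.4 (SD, n = 3 each), and the fitted log2 fold change was 0.49 (SE 0.36). Without IgG 1 the log2 fold change was 0.30.

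**Figure D1:**
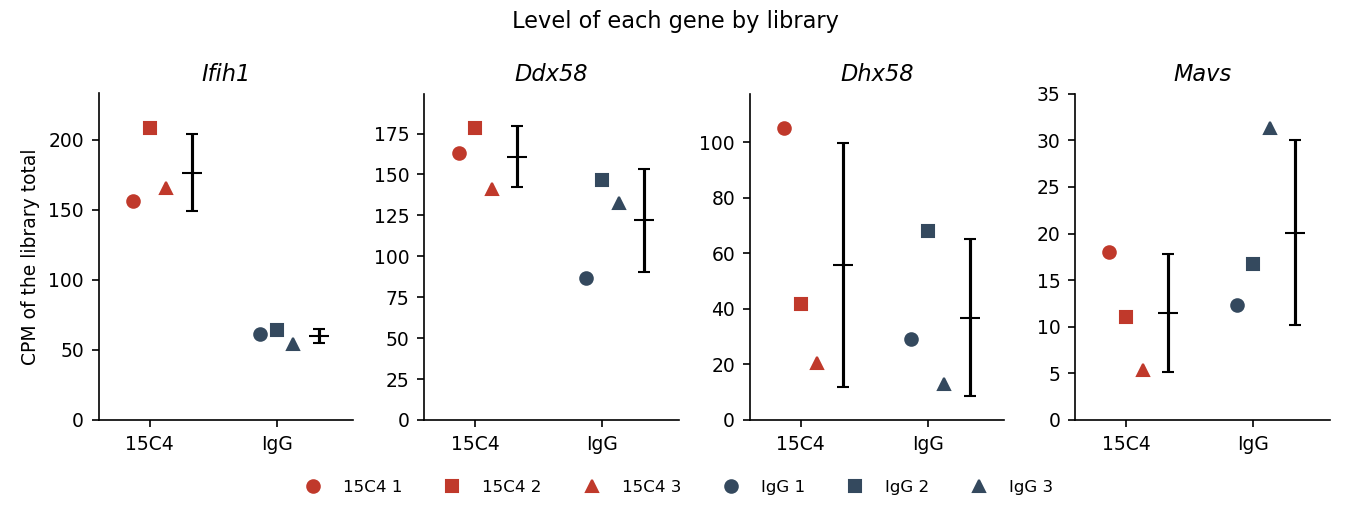
CPM of the library total (y axis, a separate linear scale from 0 in each panel) of the 4 genes in 3 libraries of 15C4 and 3 of IgG. Points are libraries, and the black bars show the mean and SD of a group. For Ifih1 the 15C4 libraries sit at 156 to 208 CPM and the IgG libraries at 54.1 to 63.9 CPM, while the groups of the other 3 genes overlap.

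The balance between MDA5 and RIG-I transcripts does not depend on how libraries are scaled, since both counts come from the same library. Ifih1 made up 48.9%, 53.9% and 54.0% of the combined Ifih1 and Ddx58 counts in 15C4 1, 2 and 3. In IgG 1, 2 and 3 it made up 41.5%, 30.3% and 29.0%. The groups did not overlap, and the closest pair was 15C4 1, with an exact 95% binomial interval of 47.0% to 50.8%, and IgG 1, with 38.0% to 45.1%. These intervals cover counting error only, since amplified reads that carry no molecular identifier need not stand for separate molecules. The mean ratio of Ifih1 to Ddx58 counts was 1.10 ± 0.124 with 15C4 and 0.518 ± 0.167 with IgG (SD, n = 3 each). The ratio rests on the same contrast that brought Ifih1 forward, so it has no test.

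**Figure D2:**
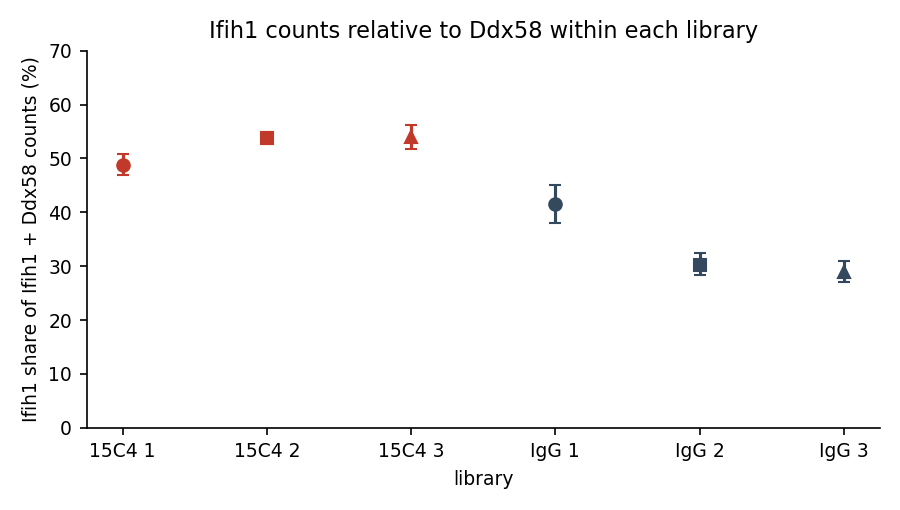
Share of Ifih1 in the summed Ifih1 and Ddx58 counts (y axis, percent) in each of the 6 libraries (x axis), with exact 95% binomial intervals that cover counting error only. The 15C4 libraries lie between 48.9% and 54.0%, and the IgG libraries between 29.0% and 41.5%.

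Dhx58 (chromosome 11, 100694884 to 100704271, minus strand, 13 coding-transcript exons) varied widely within both groups. It had 881, 816 and 132 counts with 15C4 and 150, 656 and 153 in IgG. In CPM these were 105, 41.7 and 20.6 with 15C4 and 29.0, 68.0 and 13.1 in IgG. 15C4 1 was the highest library, followed by IgG 2, and the groups overlapped. The means were 55.7 ± 43.8 and 36.7 ± 28.3 CPM (SD, n = 3 each), and the fitted log2 fold change was 0.64 (SE 0.77). Without 15C4 1 the log2 fold change turned to -0.07, without IgG 2 it was 1.42, without 15C4 3 it was 1.03 and without IgG 3 it was 0.27. The annotation places 141 exonic bases of Dhx58 opposite the antisense gene Dhx58os, and the strand setting of the counting is not given in the sources used here.

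Levels of Dhx58 and Ifih1 were set beside those of the interferon-stimulated genes, without a test. The 37 genes of that list summed to 9836, 7580 and 5414 CPM in 15C4 1, 2 and 3, and to 4945, 9726 and 5473 CPM with IgG 1, 2 and 3. The 2 libraries with the highest sums, 15C4 1 and IgG 2, were also the 2 with the most Dhx58. Among the 3 lowest sums the order did not carry over, since IgG 1, with the lowest sum, had more Dhx58 (29.0 CPM) than 15C4 3 (20.6 CPM) and IgG 3 (13.1 CPM). Ifih1 was at 156 CPM in 15C4 1 and 63.9 CPM with IgG 2, with list sums of 9836 and 9726 CPM. In 15C4 3 and IgG 3, with sums of 5414 and 5473 CPM, Ifih1 was at 165 and 54.1 CPM. Sums weigh abundant genes most, and near-equal sums held different genes. In 15C4 3 and IgG 3, Ifitm3 was at 951 and 1586 CPM, and Cxcl10 at 435 and 111 CPM. The Ifih1 gap in both pairs of libraries is the contrast that brought Ifih1 forward.

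**Figure D3:**
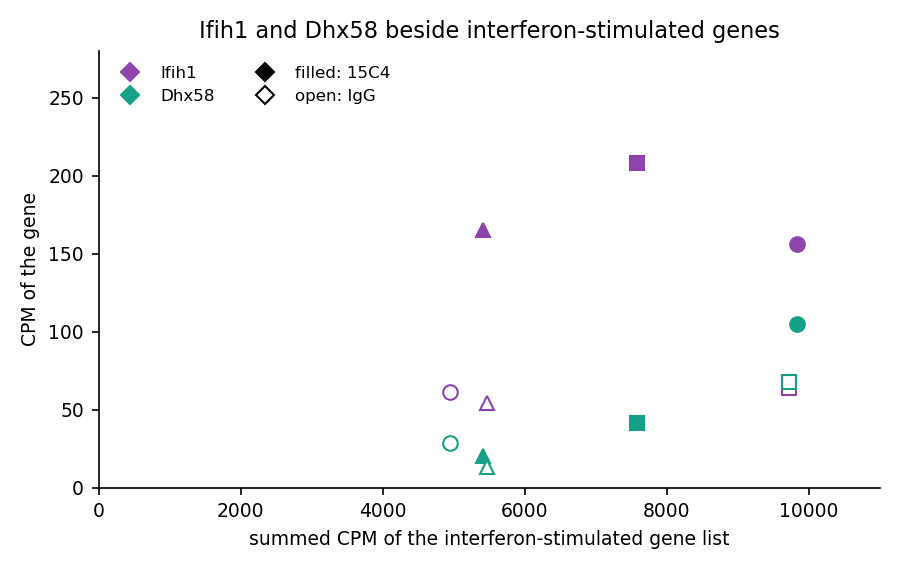
Level of Ifih1 (purple) and Dhx58 (green) in CPM (y axis) against the summed CPM of 37 interferon-stimulated genes (x axis) in 6 libraries. Symbols are filled for 15C4 and open for IgG, and circles, squares and triangles are libraries 1, 2 and 3. At sums of 9836 and 9726 CPM, Ifih1 was at 156 CPM in 15C4 1 and 63.9 CPM with IgG 2. That gap is the contrast by which Ifih1 was chosen.

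Mavs (chromosome 2, 131234063 to 131248025, plus strand, 7 coding-transcript exons) was the least abundant member and the one with a fold change below 0. It had 151, 216 and 34 counts with 15C4 and 64, 161 and 365 in IgG. In CPM these were 18.0, 11.04 and 5.32 with 15C4 and 12.4, 16.7 and 31.3 in IgG. IgG 3 was the highest library and 15C4 3 the lowest, and the remaining 4 libraries were mixed. The means were 11.4 ± 6.34 and 20.1 ± 9.91 CPM (SD, n = 3 each), and the fitted log2 fold change was -0.77 (SE 0.82), and -0.26 without IgG 3 and -0.47 without 15C4 3. Ifih1 counts exceeded those of Mavs 8.68-fold, 18.8-fold and 31.1-fold with 15C4 and 4.98-fold, 3.83-fold and 1.73-fold in IgG, without overlap between the groups. Ddx58 counts exceeded those of Mavs 9.09-fold, 16.1-fold and 26.5-fold with 15C4 and 7.02-fold, 8.80-fold and 4.24-fold with IgG. These groups did not overlap either, but came as close as 9.09 and 8.80. How often ratios of other gene pairs separate in this way was not computed, so nothing is read from either ratio. The ratio of Ifih1 to Mavs also rests on the contrast that brought Ifih1 forward.

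The members also differed in how steady they were between libraries of a group. The pooled within-group SD on the log2 CPM scale was 0.22 for Ifih1 and 0.30 for Ddx58. These were low, since 2.13% and 5.61% of tested genes had a smaller one. A gene picked for a small p tends to have a small within-group SD, so the rank of Ifih1 partly restates how it was chosen. The tested genes were not matched for level, and Ifih1 and Ddx58 were at percentiles 82.6 and 85.7 of mean CPM. The SD was 0.72 for Mavs and 1.10 for Dhx58, beside a median of 0.90 over all tested genes.

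Across all 11144 genes the edgeR quasi-likelihood test called 0 at an adjusted p under 0.05, which is 0% of those tested, so no member and no pathway gene passed. The unadjusted p lay under 0.05 for 288 genes. limma-voom also called 0, with 461 at the unadjusted threshold. DESeq2 called 23 of 10959 genes with an adjusted p (0.21%), 3 of them higher in 15C4 (0.0274%), and Ifih1 was among those 3 with a DESeq2 adjusted p of 0.0118, while Ddx58, Dhx58 and Mavs were not. In the authors' deposited table, 507 of 14112 genes passed (3.59%), and 124 were higher in 15C4 (0.879%). The authors' deposited table gave Ifih1 a log2 fold change of -1.71 for IgG over 15C4 with an adjusted p of 0.00214. It gave Ddx58 -0.54 (adjusted p = 0.409), Dhx58 -0.68 (0.781) and Mavs 0.73 (0.618). Ifih1 was 1 of the 4 members whose groups did not overlap in CPM of the library total, where 2.88% of tested genes were higher in 15C4 without overlap and 6.64% lower. With TMM scaling, where the share was 3.58% for higher and 5.92% for lower genes, Ddx58 joined it. Nothing is read from these calls and counts for the members, since they were put forward from this contrast.

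Markers of other cell types were set beside these values. The 12 T and NK cell markers summed to 5.21 to 220 CPM with 15C4 and 9.08 to 595 CPM with IgG, with 4 to 5 of 12 at 0 in the 15C4 libraries and 1 to 5 in IgG. The 14 macrophage and monocyte markers summed to 0.313 to 76.2 CPM with 15C4 and 17.2 to 124 CPM with IgG, the 7 fibroblast markers to 0.119 to 155 and 1.71 to 94.3 CPM, and the 10 pericyte markers to 62.9 to 84.3 and 10.5 to 103 CPM. Lymphatic markers, 7 in number, summed to 31.4 to 63.8 CPM with 15C4 and 11.6 to 1168 CPM with IgG, highest in IgG 2. Each of these sums overlapped between the groups. IgG 1 held the highest T and NK cell and macrophage sums, and the pan-leukocyte marker Ptprc was at 86.9 CPM there against 0.0857 to 1.87 CPM in the other 5 libraries. IgG 1 was also the library with the least Ddx58, whose log2 fold change was 0.30 without it, while that of Ifih1 was 1.68. The sum of the 8 dendritic cell markers did not overlap, at 1.02 to 1.31 CPM with 15C4 and 2.74 to 10.2 CPM with IgG. Only 1 of the 8 markers in this sum passed the filter on low counts, so nothing is read from the separation. Of this sum Zbtb46 made up 67 of 67 counts in IgG 2 and 32 of 32 in IgG 3, and Cd209a was at 0 in each library. The part of any of these cell types in the values of the 4 genes was not tested.

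Levels of different genes were compared per kilobase of merged exons, which spanned 8.165 kb for Ifih1, 7.05 kb for Ddx58, 3.272 kb for Dhx58 and 3.345 kb for Mavs. On this scale Ddx58 was at 20.1 ± 4.45 CPM per kilobase, Ifih1 at 14.5 ± 8.11, Dhx58 at 14.1 ± 10.6 and Mavs at 4.72 ± 2.64 (SD, n = 6 libraries). The order of the levels was not used to choose the genes, but the values of Ifih1 were, so pairs with Ifih1 are not free of that choice. Ifih1 was at a mean of 21.6 with 15C4 and 7.33 with IgG, and Ddx58 at 22.8 and 17.3. Their difference over all 6 libraries thus carries the group difference of Ifih1. The 3 pairs of neighbours in the order were tested with a two-sided exact sign-flip permutation test over the 6 libraries. Its smallest possible p is 0.03125. Ddx58 exceeded Ifih1 in 4 of 6 libraries (mean log2 difference 0.65 ± 0.68 SD, exact p = 0.125, adjusted over the 3 pairs 0.1875). Ifih1 exceeded Dhx58 in 3 of 6 (0.17 ± 1.16, exact p = 0.6875, adjusted 0.6875). Dhx58 exceeded Mavs in 5 of 6 (1.44 ± 1.37, exact p = 0.0625, adjusted 0.1875). The pairs were taken from the order seen in these same libraries, and a single pair at the smallest p would be adjusted to 0.09375, so 1 pair alone could not pass and the p-values do not show that neighbours are alike. Outside the neighbouring pairs, Ddx58 exceeded Mavs in 6 of 6, and Ifih1 did so in 5 of 6, the exception being IgG 3, with 6.62 against 9.35 CPM per kilobase.

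**Figure D4:**
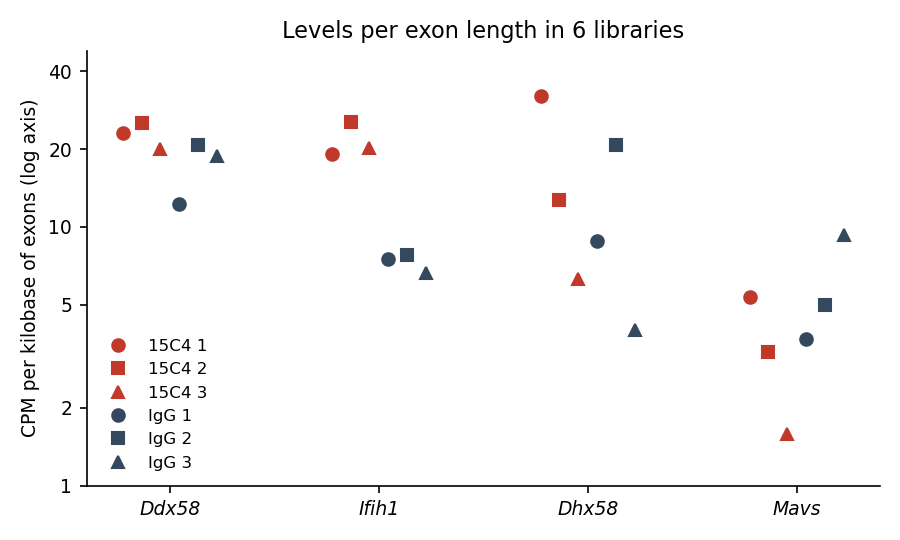
CPM per kilobase of merged exons (y axis, log scale) for the 4 genes, ordered by their mean over 6 libraries, with 15C4 libraries in red and IgG libraries in blue-grey. Ddx58 lies at 12.3 to 25.3 and Mavs at 1.59 to 9.35, while Ifih1 falls into an upper set of 15C4 libraries from 19.1 and a lower set of IgG libraries up to 7.82.

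For each member the 3 genes with the most similar pattern were found among 8574 tested genes with a mean of at least 10 CPM, by the root mean square (RMS) difference of log2 CPM over the 6 libraries after centring each gene on its mean. Closest to Ifih1 were Zfp91, a zinc finger E3 ligase gene (RMS 0.13), the RIKEN transcript B230307C23Rik (0.26) and Msantd2 (0.29). Zfp91 was at 104, 141 and 145 CPM with 15C4 and 45.2, 49.9 and 40.1 CPM with IgG. Closest to Ddx58 were Nop56, a nucleolar ribonucleoprotein gene (0.09), Golph3 of the Golgi (0.13) and Tlr3, which encodes the endosomal receptor for double-stranded RNA (0.14). Tlr3 was at 186, 229 and 132 CPM with 15C4 and 94.5, 152 and 155 CPM with IgG. Closest to Dhx58 were Fryl (0.21), Parp9, an interferon-stimulated gene (0.25), and Dennd4b (0.28). Closest to Mavs were Cobll1 (0.14), Ttc19, which encodes a mitochondrial protein (0.19), and Ccnd2, a D-type cyclin gene (0.21). Among the members themselves the smallest difference was that of Ifih1 and Ddx58 (0.62), and the largest that of Ifih1 and Mavs (1.39). By this measure 3.71% of the compared genes were at least as close to Ifih1 as Ddx58 was, and 33.1% were at least as close to Ddx58 as Ifih1 was. The group difference was left in, so closeness to Ifih1 includes sharing the difference by which it was chosen. Zfp91, B230307C23Rik and Msantd2 had log2 fold changes of 1.64, 1.37 and 1.35.

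Around the 4 genes, 179 pathway genes in 7 lists were described, of which 161 were tested. None of the 161 passed in edgeR, DESeq2 or limma-voom. An unadjusted edgeR p under 0.05 was found for 4 of the 161, beside 288 of the 11144 tested genes. Each of the 4 had a fold change above 0, and the direction of the 288 was not counted. The lists were chosen with earlier results of these data known, so nothing is read from this count. Their median log2 fold change was 0.12, with 104 above 0, against a median of 0.01 and 5649 above 0 over the 11144 tested genes. The groups did not overlap in CPM for 8 genes higher in 15C4 (4.97%, beside 2.88% of all tested genes) and 6 lower (3.73%, beside 6.64%). With 1 library left out these counts were 10 to 26 and 9 to 22. Smaller groups separate more easily, and the share of all tested genes was not computed at these settings. The rise is therefore not read as a result about pathway genes.

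Of the genes whose products bind or modify the receptors, 16 of 20 tested were above 0 (median 0.29, but 0.13 without 15C4 1, 0.14 without 15C4 2, 0.18 without IgG 3 and 0.12 with the replicate block). Cyld, a deubiquitinase that removes chains from RIG-I, was at 251, 179 and 148 CPM with 15C4 and 114, 109 and 91.8 CPM with IgG (log2 fold change 0.94, SE 0.34), without overlap. Ywhae, the 14-3-3 protein that carries RIG-I to the membrane, was the most abundant at 821, 1086 and 1421 CPM with 15C4 and 765, 713 and 1119 CPM with IgG (0.47, SE 0.36). Ube2n, an E2 enzyme for lysine-63 chains, had a log2 fold change of 0.59 (SE 0.52), and its groups overlapped. Rnf135, the ubiquitin ligase of RIG-I, named after its values were seen, was at 0, 10.4 and 2.82 CPM against 12.6, 11.4 and 10.9 CPM, lower without overlap on this scale but overlapping with TMM scaling. The summed level of this list was 2842 to 3099 CPM with 15C4 and 2340 to 2632 CPM with IgG. Ywhae weighs most in these sums, and sums without Ywhae were not computed, so nothing is read from their separation.

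Of the genes that act on MAVS at the mitochondrion, 15 of 21 were above 0 (median 0.12). Pcbp1, an RNA-binding protein that promotes MAVS turnover, was the most abundant and nearly level at 856 ± 108 CPM with 15C4 and 848 ± 49.7 CPM with IgG (SD, n = 3 each). Rnf115, a ubiquitin ligase, had a log2 fold change of 0.70 (SE 0.48), Atg5 of the autophagy conjugate 1.06 (SE 0.79), and Smurf2, a HECT ubiquitin ligase, -0.79 (SE 0.62). The groups of these 4 genes overlapped. Nlrx1, a mitochondrial regulator named after its values were seen, did not, at 0, 1.79 and 0 CPM against 2.13, 2.49 and 4.88 CPM. The median of this list was -0.01 without 15C4 2 and -0.06 without 15C4 3, and reached 0.25 without IgG 3.

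The kinases and adaptors after MAVS lay mostly on the other side, with 9 of 27 above 0 and 18 below (median -0.39). Traf3, the ligase that links MAVS to TBK1, was at 62.1, 11.5 and 41.6 CPM with 15C4 and 78.6, 129 and 96.4 CPM with IgG (log2 fold change -1.33, SE 0.62), without overlap. Traf5, a related adaptor, was at 0, 0.817 and 0 CPM with 15C4 and 4.06, 1.45 and 3.77 CPM with IgG. Chuk, which encodes IKK-alpha, was the most abundant of the list at 252 ± 88.9 and 162 ± 43.0 CPM (SD, n = 3 each; log2 fold change 0.76, SE 0.40). Irf3, the transcription factor that MAVS activates and the remaining gene of this list whose groups did not overlap, was at 16.3, 16.9 and 9.39 CPM with 15C4 and 19.1, 28.2 and 29.9 CPM with IgG. It was named after its values were seen. In this list 3 of 27 genes were lower without overlap, beside 6.64% of all tested genes, and nothing is read from this count. In 15C4 3, the library with the most genes at 0, Traf6 was at 0.782 CPM against 31.5 to 111 CPM in the others, and the median of the list was -0.09 without that library and -0.25 without IgG 3.

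**Figure D5:**
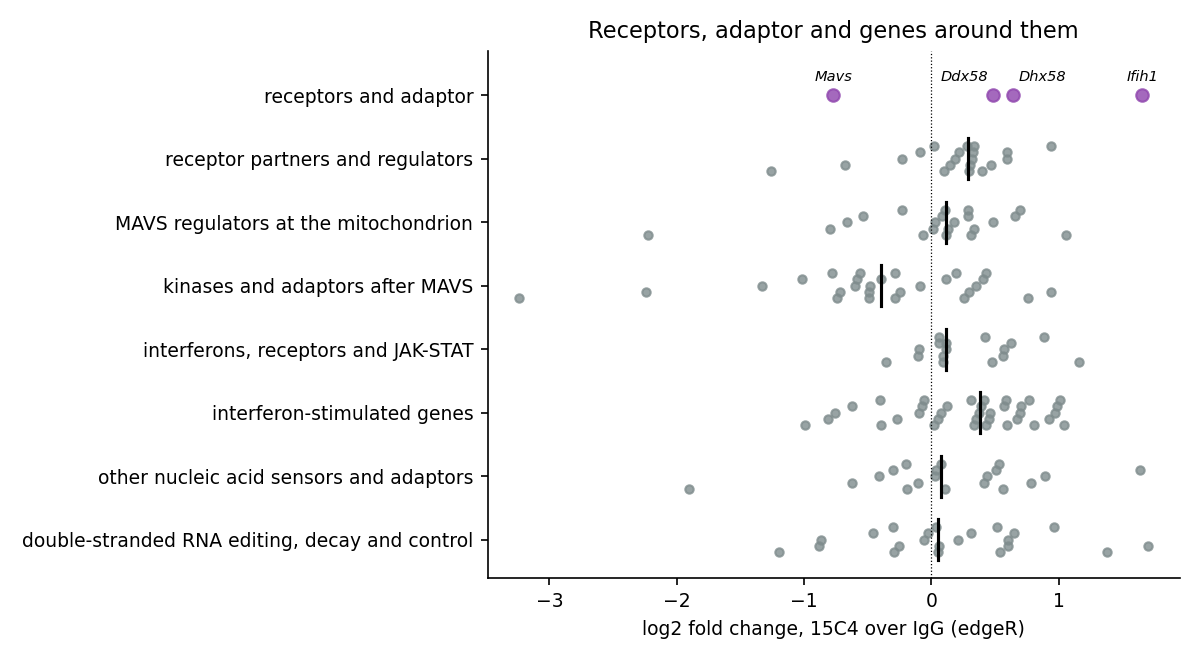
Log2 fold change of 15C4 over IgG (x axis, edgeR with TMM scaling) for the 4 genes in purple and for the 161 tested genes of 7 pathway lists in grey, with black bars at the list medians. The medians lie between -0.39 for kinases and adaptors after MAVS and 0.38 for interferon-stimulated genes, and Ifih1 lies at 1.66.

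Interferon genes were at or near 0, except Ifng in IgG 1. Ifna2, Ifna4, Ifna5, Ifnl2 and Ifnl3 had 0 counts in each library, where a limit of 3 counts stands for 0.153 to 0.580 CPM. Ifnb1 had 31 counts in 15C4 2 and 0 in the other 5 libraries. Ifnk had 5 counts in IgG 1 and 0 in the other 5. Ifng, named after its values were seen, had 84 counts in IgG 1 (16.2 CPM), 5 in IgG 2 and 3 in 15C4 1. It had 0 in 15C4 2, 15C4 3 and IgG 3. Of the interferon receptors, JAK kinases, STAT factors and their regulators, 13 of 16 tested were above 0 (median 0.12, from 0.03 without 15C4 1 to 0.36 without 15C4 3). Stat2 was at 134 ± 63.3 and 75.9 ± 53.3 CPM, Usp18, a negative regulator of the receptor, at 95.2 ± 19.96 and 65.5 ± 30.3 CPM, and Il10rb at 163 ± 61.5 and 130 ± 31.6 CPM (SD, n = 3 each). The groups overlapped for each of the 16.

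Of the interferon-stimulated genes, 26 of 36 were above 0 (median 0.38). Samd9l, an antiviral translation inhibitor, was at 835, 823 and 840 CPM with 15C4 and 350, 674 and 345 CPM with IgG (log2 fold change 0.97, SE 0.34), without overlap. Phf11d was at 255, 247 and 171 CPM with 15C4 and 137, 121 and 148 CPM with IgG (0.81, SE 0.32), also without overlap. The third such gene was Bst2, which encodes tetherin, named after its values were seen, at 245, 287 and 269 CPM against 174, 240 and 209 CPM. These 3 of 36 make 8.33%, beside 2.88% of all tested genes higher without overlap. The list was chosen with earlier results known, so nothing is read from this count. Rtp4 had a log2 fold change of 0.77 (SE 0.39), and Ifitm3, the most abundant of the list, one of -0.27 at 951 to 1236 CPM with 15C4 and 1150 to 1586 CPM with IgG. The median of the list was 0.97 without IgG 2 and 0.10 without 15C4 1, the 2 libraries with the highest sums, and 0.58 without 15C4 3.

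Among other nucleic acid sensors, 12 of 19 tested were above 0 (median 0.07). Dhx9, a helicase that unwinds double-stranded RNA, was at 233, 291 and 359 CPM with 15C4 and 193, 128 and 191 CPM with IgG (log2 fold change 0.90, SE 0.36), without overlap. Myd88, the adaptor of Toll-like receptors, was at 26.4, 11.9 and 27.1 CPM against 11.4, 8.92 and 2.14 CPM, and Dhx15, an RNA helicase, at 443, 411 and 398 CPM against 367, 333 and 236 CPM. Ddx3x was the most abundant, at 822 to 1120 CPM with 15C4 and 564 to 952 CPM with IgG. Dhx33, an RNA helicase named after its values were seen, lay lower at 21.2, 7.56 and 0.156 CPM against 29.2, 32.05 and 46.6 CPM. The median of this list was -0.01 with upper quartile scaling and 0.38 in limma-voom, and ranged from 0.01 without 15C4 1 to 0.31 without 15C4 3 or IgG 1. Tlr7, Tlr8 and Tlr9 had 0 counts in each library. The list for double-stranded RNA editing, decay and control, which also holds genes that act on DNA, had 13 of 22 above 0. Its median of 0.06 turned to -0.03 with library totals, -0.04 with upper quartile scaling and -0.07 without 15C4 2. It reached 0.38 without 15C4 3. Dicer1, the nuclease that makes small RNAs, was at 74.2, 37.1 and 177 CPM against 45.02, 43.6 and 32.8 CPM. Adar, the inosine-forming editor that limits MDA5 activation, was at 92.4, 38.3 and 31.9 CPM against 28.0, 39.1 and 18.9 CPM, and Ythdf2, the most abundant, was at 160 ± 31.3 and 112 ± 26.3 CPM (SD, n = 3 each). Trex1, a DNA exonuclease named after its values were seen, was the one gene of this list without overlap, at 21.5, 10.2 and 10.6 CPM against 5.22, 8.09 and 0.343 CPM. That is 4.55% of the list, beside 2.88% of all tested genes higher without overlap.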

How the data were processed

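The authors deposited 1 whole-number count per gene symbol and library. The tools listed per the submitters' processing notes are DESeq2, featureCounts, fastp and STAR 2.5b, with no roles for the builds, mm9 and mm10. Annotation and strandedness of the counting are unstated in the labels. Per the file headers, the series table adds normalised values, a score here because the authors rounded them, and, for each gene, a fold (ratio), its log2, and a raw and adjusted p-value. Its counts equalled the single files for 24394 symbols. Its mean per gene differed from the mean over these 6 libraries (983 against 1079 for Ifih1), and what else it covers is unstated.

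Counts were tested with edgeR 4.0.16 (R 4.3.3; quasi-likelihood test, TMM, filterByExpr with a minimum count of 10 and total of 15, treatment as the term, Benjamini-Hochberg threshold 0.05). The SE is the absolute log2 fold change over the square root of F. DESeq2 1.42.0, limma 3.58.1 (voom), other scalings and filters and left-out libraries were alternatives, and overlap on TMM-scaled CPM was added after seeing the data. Level tests used scipy 1.17.1. Gene positions and exon lengths are from GENCODE M21 on GRCm38, start regions from RefSeq on GRCm38. The edgeR step was tested on simulated data. Named genes were the 4 members, in each of 7 lists the 3 with the smallest unadjusted p and the most abundant, and the 3 nearest patterns per member. The members and lists were chosen with earlier results of these data known. The results for 1 item that this rule names are not reported here.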

Additional observations from a re-analysis of the deposited data

How the results depend on the processing

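Of 56 member fold changes under other scalings, filters, tools, the replicate block or with 1 library left out, 55 kept their direction and moved by less than the within-group SD (log2). The exception, a change of sign, was the log2 fold change of Dhx58 without 15C4 replicate 1, at -0.075. With 1 library left out, log2 fold changes ranged from 1.52 to 1.79 for Ifih1, 0.30 to 0.63 for Ddx58, -0.07 to 1.42 for Dhx58 and -1.17 to -0.26 for Mavs. The count of called genes was 23 with DESeq2, 1 without the filter on low counts, and 0 otherwise, and 0 pathway genes were called in each setting. With the replicate number as a block in edgeR it was 0, with Ifih1 at 1.64, Ddx58 at 0.52, Dhx58 at 0.70 and Mavs at -0.75. The labels state no pairing, so the numbers were not taken as pairs. Same-numbered libraries had deviation correlations of -0.04, 0.06 and 0.10, beside -0.10 to 0.07 for libraries of unlike number. Deviations from means of 3 libraries are tied to one another, so these values cannot decide on pairing. Upper quartile scaling moved the median of all genes to -0.09 (0.01 with TMM), with Ifih1 at 1.55. The difference between Ifih1 and Dhx58 per kilobase ranged from -0.13 (without 15C4 replicate 3) to 0.49 with 1 library left out, and was 0.89 per coding length. With 5 libraries the smallest p of that test exceeds its threshold. The cause of these shifts was not tested.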
